A study of Mus musculus with 60 samples.

Results

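Expression of 8 genes of cholesterol synthesis and uptake, Hmgcs1, Sqle, Idi1, Insig1, Fdft1, Cyp51, Dhcr7 and Srebf2, was followed across 60 microarrays of mouse heart, gastrocnemius muscle and neocortex. The members were all probe sets that the array annotation pairs with 1 of these symbols, which gave 8 of 18193 genes and 19 of 45101 probe sets. A probe set is a group of short oligonucleotides that together report 1 transcript. Each tissue had 5 arrays in each of 4 groups, and the labels describe each array as a biological replicate: old mice on calorie restriction (CR), old mice fed resveratrol, old controls and young controls. All mice were individually housed males of the B6C3F1 hybrid (C57BL/6 crossed with C3H/He) that ate AIN-93M based diets. The 3 old groups were 30 months old and the young controls 5 months old. The old CR mice had calories restricted from 14 months of age, by 40% according to the labels, although the published feeding amounts amount to a smaller cut. The old resveratrol mice ate the control diet with resveratrol, a plant polyphenol, from the same age, at an amount stated to give 4.9 mg per kg of body weight. The 2 diets and the age comparison were all read against the same 5 old control arrays of a tissue, so the changes under age, CR and resveratrol are not independent of each other.

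Cholesterol is built from acetyl-CoA by a long chain of enzymes in the cytosol and endoplasmic reticulum. The chain is switched on by SREBP-2, the transcription factor encoded by Srebf2, which is released from the endoplasmic reticulum when membrane sterol is low, and it is held back there by INSIG proteins when sterol is plentiful. Most cells can run the pathway, and the brain relies on it because lipoproteins do not carry cholesterol across the blood-brain barrier. Hmgcs1 encodes the cytosolic synthase that makes HMG-CoA, and Idi1 the isomerase that supplies isoprenoid units. Fdft1 (squalene synthase) and Sqle (squalene epoxidase) make and oxidise squalene, and Cyp51 and Dhcr7 act on the sterol ring, Dhcr7 in the last step to cholesterol.

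SREBP-2 binds a sterol regulatory element, and its partners at such promoters include NF-Y, which binds CCAAT, and Sp1, which binds GGGCGG. The promoter sequences below, from RefSeq (build GRCm38.p6), are shown because they place these words in front of members whose signals are described next. The RefSeq table held 8 promoters of 6 members (Hmgcs1, Idi1, Insig1, Cyp51, Dhcr7 and Srebf2), each running from 250 bases before the transcription start to 50 bases after it, and no sequence is shown for Sqle and Fdft1. Only the 250 bases before the start are printed, 5′ to 3′ on the strand of the gene, and capitals mark TCACNCCA (the element's core), CCAAT and GGGCGG on either strand. The Hmgcs1 stretch lies at chr13:119690101-119690350 (+), Srebf2 at chr15:82147019-82147268 (+), Idi1 at chr13:8885356-8885605 (+) and Cyp51 at chr5:4104698-4104947 (−).
Hmgcs1: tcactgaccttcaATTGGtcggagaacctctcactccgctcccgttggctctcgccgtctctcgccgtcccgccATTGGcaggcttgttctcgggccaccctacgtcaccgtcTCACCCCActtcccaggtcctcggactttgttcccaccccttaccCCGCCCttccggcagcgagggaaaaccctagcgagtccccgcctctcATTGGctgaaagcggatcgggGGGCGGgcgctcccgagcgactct
Srebf2: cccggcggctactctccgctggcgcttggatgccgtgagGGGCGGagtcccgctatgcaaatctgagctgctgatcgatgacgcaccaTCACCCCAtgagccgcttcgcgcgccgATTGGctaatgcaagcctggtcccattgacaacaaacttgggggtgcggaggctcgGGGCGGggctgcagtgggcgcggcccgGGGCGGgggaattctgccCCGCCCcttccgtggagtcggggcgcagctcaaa
Idi1: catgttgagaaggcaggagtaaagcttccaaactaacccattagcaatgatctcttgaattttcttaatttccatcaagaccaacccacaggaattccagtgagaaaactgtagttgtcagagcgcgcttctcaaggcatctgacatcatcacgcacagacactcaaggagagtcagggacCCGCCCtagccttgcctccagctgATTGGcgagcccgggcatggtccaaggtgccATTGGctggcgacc
Cyp51: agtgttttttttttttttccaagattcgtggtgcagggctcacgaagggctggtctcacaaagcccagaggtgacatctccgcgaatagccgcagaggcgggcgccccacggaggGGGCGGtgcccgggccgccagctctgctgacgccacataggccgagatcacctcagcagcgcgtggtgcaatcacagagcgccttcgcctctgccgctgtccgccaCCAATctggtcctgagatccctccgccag
The core TCACNCCA, searched on both strands, was found in Hmgcs1 and Srebf2, in both as TCACCCCA, at 137 to 130 and 162 to 155 bases before the start. It occurred in 4.36% of the 32851 promoters of the table. CCAAT was found in 6 of 8 member promoters and 37.4% of all promoters, and GGGCGG in 7 of 8 member promoters and 35.7% of all promoters. CCAAT can share end letters with the core or with GGGCGG, none of these matches overlapped in the stretches printed, and a match to these letters is not a binding site by itself.

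Every member was measured in every tissue, and the neocortex had the highest levels of most. Signals are the scanner software's linear units, scaled so that the trimmed mean of each array was 500, and each gene is represented by its probe set of highest mean signal. Sqle ranged over 1259, 1616 and 1990 (lowest, median and highest of 20 arrays) in neocortex, against 77.4, 181.7 and 373.6 in gastrocnemius and 10.1, 123.3 and 339.1 in heart. Hmgcs1 ranged over 6873, 8605 and 10930 in neocortex, against 1553, 2631 and 4444 in gastrocnemius and 1986, 2740 and 3363 in heart. Cyp51 ranged over 679.3, 788.2 and 957.6 in neocortex, against 144.8, 221.2 and 378.4 in gastrocnemius and 143.1, 290.4 and 413.5 in heart. For these genes and for Srebf2 every neocortex array lay above all 40 arrays of the other tissues. Srebf2 had 692.8, 893 and 1536 in neocortex, against 190.7, 309.4 and 467.4 in gastrocnemius and 176.6, 354.9 and 540.5 in heart.

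The other 4 members overlapped between tissues. Levels were compared as mean log2 signals taken back to linear units. By this measure the neocortex level was 15.2-fold that of heart for Sqle, 5.03-fold for Idi1, 3.31-fold for Hmgcs1, 2.96-fold for Cyp51 and 2.68-fold for Srebf2. It was 1.86-fold for Dhcr7, 1.66-fold for Insig1 and 1.61-fold for Fdft1. Fdft1 ran in another order, with 2741, 4647 and 6709 in gastrocnemius, 2685, 3615 and 4809 in neocortex and 1360, 2403 and 3242 in heart, and its neocortex level was 0.788-fold that of gastrocnemius. That order belongs to its representing probe set, 1438322_x_at. Fdft1 probe set 1448130_at, described below, was higher in neocortex than in gastrocnemius with CR and with resveratrol, and these tissues overlapped in old controls. Heart and gastrocnemius overlapped for all 8 members, and their levels by the same measure were within 1.17-fold of each other for Hmgcs1, Insig1 and Dhcr7. These are levels of the whole tissue, in which fewer cells of a type and less RNA per cell cannot be told apart.

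**Figure D1:**
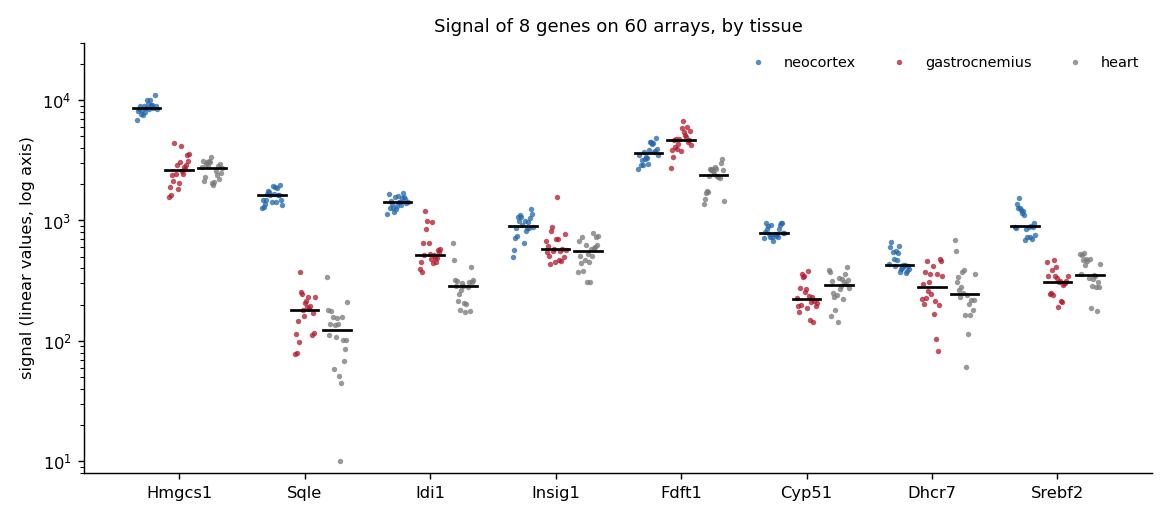
Signal of the 8 members in each tissue, with neocortex, gastrocnemius and heart from left to right. Each point is 1 of 20 arrays, the bar is the median and the vertical axis is log scaled. Hmgcs1, Sqle, Cyp51 and Srebf2 stand clear of the other tissues in neocortex, while Fdft1, shown by probe set 1438322_x_at, has its highest median in gastrocnemius.

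The arrays differed in several technical and cell type measures that run with the groups. Median signals of the arrays were 105.8 to 150.3 in heart, 96.1 to 151.1 in gastrocnemius and 104 to 119.5 in neocortex, and no 2 arrays held identical values. The median correlation of an array with the other 4 of its group was 0.976 to 0.985 in neocortex. In gastrocnemius it was 0.902 for CR replicate 2, 0.927 for young control replicate 4 and 0.947 for old control replicate 1, against 0.963 to 0.972 for the others, and in heart it was 0.901 for young control replicate 1, against 0.947 to 0.968. The defining markers of each tissue (5 for heart, 5 for gastrocnemius and 4 measured for neocortex) were all above the signal cutoff there. Spiked-in poly-A transcripts, which monitor labelling, had mean log2 signals of 9.92 ± 0.522 in CR muscles and 10 ± 0.166 in resveratrol muscles, against 6.78 ± 0.294 in old control muscles (SD, n = 5 each), with no overlap (both adjusted p = 0.0293, exact permutation test). They were 9.81 ± 0.233 in resveratrol neocortices, against 8.77 ± 0.292 in old control neocortices, again with no overlap (adjusted p = 0.0293, exact permutation test). In CR hearts they were 9.4 ± 0.347, against 10.1 ± 0.441 in old control hearts (adjusted p = 0.0449, exact permutation test). The 3′ minus 5′ beta-actin difference, a sign of RNA integrity, was 0.787 ± 0.111 in CR hearts and 0.819 ± 0.117 in resveratrol hearts, against 1.39 ± 0.16 in old control hearts, and it was 0.719 ± 0.1 in young control hearts. In neocortex it was 0.708 ± 0.0448 with CR and 0.887 ± 0.0939 with resveratrol, against 0.546 ± 0.0641 in old controls. Their part in the results below was not tested.

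Of 72 changes (8 members in age, CR and resveratrol in 3 tissues) 14 passed an adjusted p of 0.05 in limma's test, adjusted by the method of Benjamini and Hochberg over all genes of the tissue and comparison. With age 1 of 8 members rose in heart (Fdft1), 1 in gastrocnemius (Sqle) and 1 in neocortex (Insig1), and none fell. Over all genes tested 10.8% were called with age in heart, 0.429% in gastrocnemius and 1.46% in neocortex. With CR 2 members fell in heart (Hmgcs1 and Dhcr7), against 22% of all genes called in either direction. With CR in gastrocnemius 1 rose (Fdft1) and 1 fell (Srebf2), against 31.2%, and in neocortex 1 rose (Fdft1) and 2 fell (Dhcr7 and Srebf2), against 30.6%. With resveratrol none was called in heart (limma; 4 at an unadjusted p under 0.05), against 17.5%. In gastrocnemius 1 fell (Cyp51), against 18.7%, and in neocortex 1 rose (Fdft1) and 2 fell (Dhcr7 and Srebf2), against 26.2%. The diet counts, 0 to 3 of 8, are of the order of the share of all genes called, so they are not a result about these genes. The median log2 change of the 8 members with age was 0.374 in gastrocnemius, where all 8 were positive, against 0.03 over all genes. It was −0.312 in heart, where 6 were negative, and 0.0477 in neocortex, against 0.0306 and 0.0218 over all genes. With CR it was −0.285 in heart, −0.335 in gastrocnemius and 0.0633 in neocortex, against 0.000479, 0.104 and −0.0273 over all genes. With resveratrol it was −0.116 in heart, −0.224 in gastrocnemius and 0.0749 in neocortex, against 0.00926, 0.0663 and −0.00528 over all genes. These medians moved with single arrays. The gastrocnemius median was −0.189 with CR without old control replicate 1 and −0.118 with resveratrol without resveratrol replicate 1. The heart median was −0.17 with age without old control replicate 4 and −0.0629 with resveratrol without old control replicate 5. In neocortex it was −0.0258 with age without young control replicate 1, 0.0172 with CR without old control replicate 5 and 0.00929 with resveratrol without resveratrol replicate 3.

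**Figure D2:**
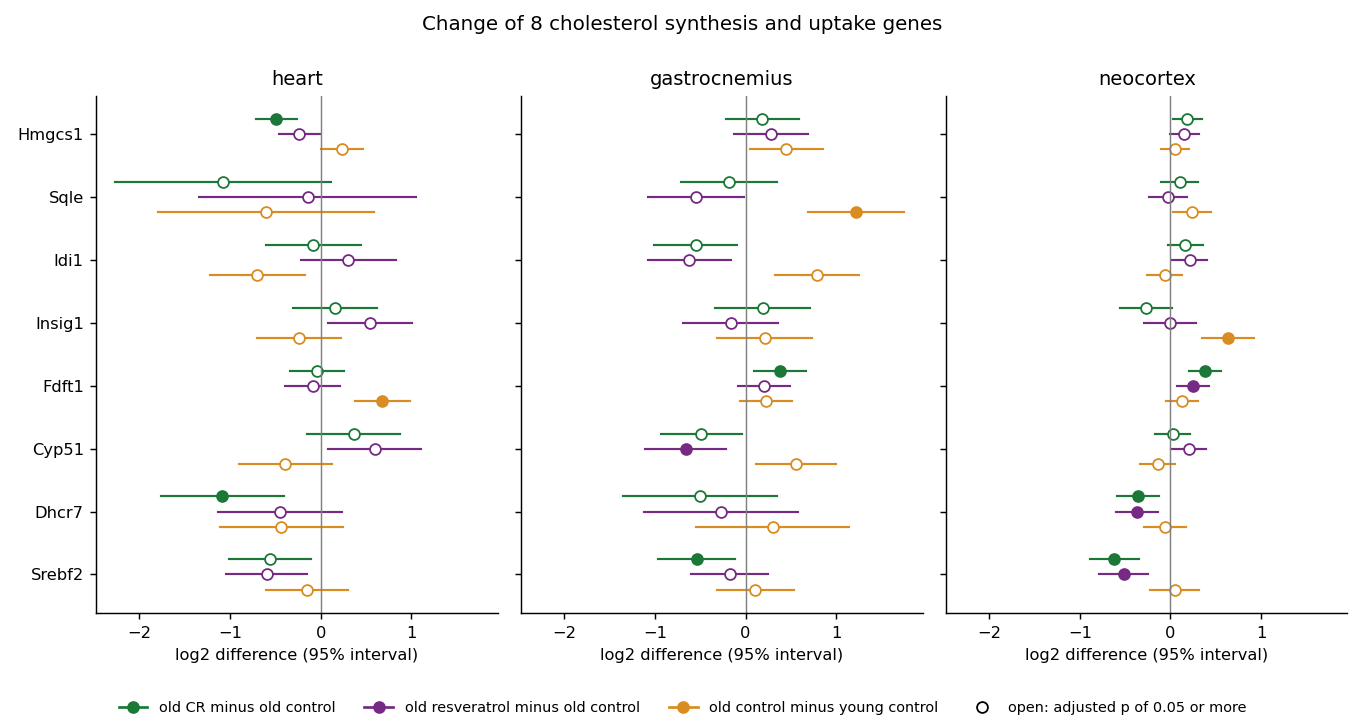
Log2 change of each member with its 95% interval in heart, gastrocnemius and neocortex, for old CR minus old control, old resveratrol minus old control and old control minus young control. Filled points passed an adjusted p of 0.05, and the neocortex intervals are the narrowest of the 3 tissues. Of the 14 filled points 7 are in neocortex, 4 in gastrocnemius and 3 in heart.

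The transcription factor gene Srebf2 fell in neocortex under both diets. Its signals were 692.8, 849.9, 735.9, 888.2 and 727.5 in CR neocortices, against 1268, 1213, 1161, 1201 and 1120 in old control neocortices. Resveratrol neocortices had 896.5, 702.2, 878, 956.3 and 762.6. Every diet array lay below every old control array. The log2 change was −0.62 with CR (SE 0.13, adjusted p = 0.000899) and −0.51 with resveratrol (SE 0.13, adjusted p = 0.00487). With age it was not called, and old controls averaged 1193 ± 55.8 and young controls 1186 ± 297 (SD, n = 5 each; log2 change 0.05, adjusted p = 0.921), and the young arrays spanned 864.8 to 1536. The decrease held in every fit that left out 1 array.

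Another Srebf2 probe set, 1426744_at, also fell in the same neocortices. Its signals were 526.1, 518, 566.4, 624.3 and 563.1 in CR neocortices and 667.2, 596.5, 630.2, 582.2 and 491 in resveratrol neocortices, against 1215, 1236, 932.4, 1056 and 948.5 in old control neocortices. Neither diet overlapped the controls. The log2 changes were −0.94 with CR (adjusted p = 1.1e-05) and −0.86 with resveratrol (adjusted p = 3.19e-05), in a fit of all probe sets on their own, in which 26.4% and 24.1% of probe sets were called in neocortex with CR and resveratrol. Cell type markers moved in the same arrays in both directions. Of 10 astrocyte markers 2 rose and 4 fell with CR and 3 rose and 1 fell with resveratrol, and 1 and 3 of 9 neuron markers fell. Over all genes 30.6% were called with CR and 26.2% with resveratrol. The summed neuron markers were 88760 to 105700 with CR and 85380 to 100300 with resveratrol, against 91150 to 108600 in old controls. The summed oligodendrocyte markers were 48500 to 64010 and 55010 to 67420, against 51350 to 59230, and those of astrocytes 34720 to 38900 and 37430 to 42670, against 35340 to 40270. All these sums overlapped the controls. The most abundant markers carry most of a sum, and the neuron marker Slc17a7, a vesicular glutamate transporter, fell by 0.949 with CR and by 0.953 with resveratrol with no overlap (adjusted p = 0.000222 and 0.000266). Of 8 macrophage markers measured 2 fell with CR and 4 rose with resveratrol, against the same shares of all genes. Their sums were 8100 to 9922 and 10610 to 15660, against 9337 to 11080. The part of these cells in the Srebf2 decrease was not tested.

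In gastrocnemius the Srebf2 probe sets did not run together, while in heart both had negative changes with CR and with resveratrol. In gastrocnemius the representing probe set had 190.7, 307.4, 311.4, 214.1 and 208.6 in CR muscles, against 238.3, 467.4, 343.2, 412.7 and 334.4 in old control muscles. These groups overlapped, and the log2 change was −0.54 (SE 0.204, adjusted p = 0.0489). The call was lost without any 1 of young control replicates 2 and 5, old control replicates 2, 3, 4 and 5, CR replicates 1, 4 and 5 or any resveratrol replicate (adjusted p 0.0525 to 0.131), and in 6 of 13 other settings. Probe set 1426744_at had 302.7, 270.8, 271.2, 171.6 and 282.6 in resveratrol muscles, against 117.8, 74.7, 205.5, 161 and 116.9 in old control muscles. It rose by 1.0 on the log2 scale there (adjusted p = 0.0177), where 20.4% of probe sets were called with resveratrol, while the representing probe set changed by −0.17 (adjusted p = 0.592). Without old control replicate 2 its change was 0.80 and the call was lost (adjusted p = 0.0575). With CR 1426744_at changed by 0.41 in muscle (limma, adjusted p = 0.283). The 2 probe sets of this gene thus differed in direction in muscle with both diets.

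In heart the representing Srebf2 probe set averaged 299.8 ± 67.1 with CR and 296.9 ± 93.2 with resveratrol, against 434.5 ± 59.3 in old controls (SD, n = 5 each). Its log2 changes were −0.56 (adjusted p = 0.0675) and −0.60 (adjusted p = 0.0608), and neither passed. Probe set 1426744_at fell by 1.91 on the log2 scale with CR (SE 0.557, adjusted p = 0.0157), where 20.4% of probe sets were called in heart with CR. Its CR hearts had 14.4, 50.5, 209.2, 152 and 18, against 235.2, 122.1, 254.3, 150.6 and 281.3 in old control hearts, so 2 of the 5 CR arrays lay within the range of the controls. The call was lost without CR replicate 1 (−1.44, adjusted p = 0.0571) or CR replicate 5 (−1.52, adjusted p = 0.0555), which are the 2 lowest CR arrays. With resveratrol 1426744_at changed by −0.48 in heart (limma, adjusted p = 0.642).

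**Figure D3:**
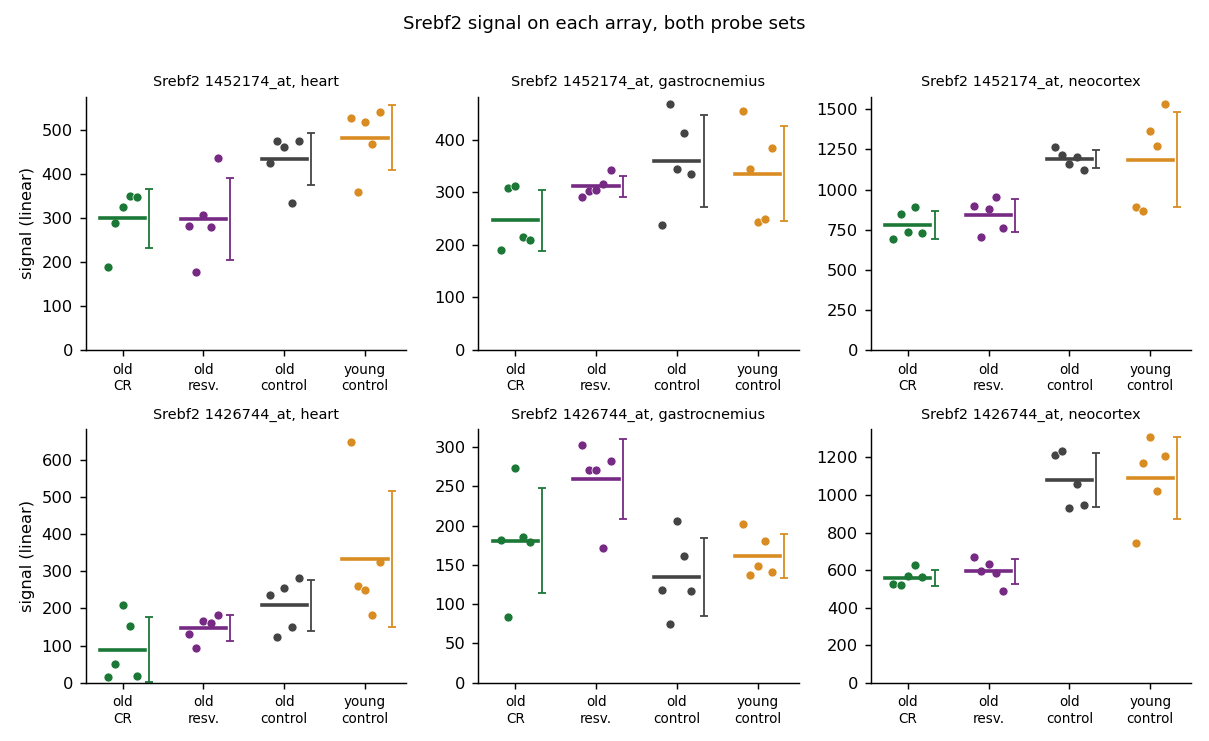
Signal of the 2 Srebf2 probe sets in each tissue for old CR, old resveratrol, old control and young control. Points are single arrays, the bar is the mean and the error bar the SD (n = 5). In neocortex all CR and resveratrol arrays of both probe sets lie below the old controls, and in heart the CR arrays of 1426744_at run between 14.4 and 209.2.

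Insig1, the endoplasmic reticulum anchor that holds SREBP back, rose with age in neocortex. Its signals were 1076, 990.2, 1104, 1079 and 910.9 in old control neocortices, against 492.7, 566.7, 718.2, 862.4 and 745.5 in young control neocortices. The groups did not overlap, and the log2 change was 0.63 (SE 0.138, adjusted p = 0.0198). The call was lost without young control replicate 2 (0.58, adjusted p = 0.0669), old control replicate 3 (0.61, adjusted p = 0.0512) or old control replicate 4 (0.62, adjusted p = 0.0656). In the same comparison 4 of 8 macrophage markers rose, where 1.46% of all genes were called. Their sums were 9337 to 11080 in old controls, against 7066 to 8223 in young controls, and their part was not tested. In CR neocortices it averaged 861.4 ± 141 and in resveratrol neocortices 1036 ± 159, against 1032 ± 80.3 in old controls, with no call (adjusted p = 0.138 and 0.988). In heart it averaged 657.7 ± 71.9 with resveratrol, against 462.2 ± 123.5 in old controls (log2 change 0.54, adjusted p = 0.0992). In gastrocnemius its adjusted p values were 0.592 or more in every comparison but CR minus resveratrol (0.564), and the CR muscles ran from 466.2 to 1577.

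Hmgcs1, which makes HMG-CoA, an early intermediate of the pathway, fell in heart with CR. Its signals were 2039, 1986, 2069, 2585 and 2394 in CR hearts, against 3071, 2839, 3135, 3059 and 3363 in old control hearts. All CR arrays lay below all old control arrays, and the log2 change was −0.49 (SE 0.11, adjusted p = 0.00213). The call held in every fit that left out 1 array. Probe sets 1433444_at (−0.47, adjusted p = 0.027) and 1433445_x_at (−0.35, adjusted p = 0.0265) fell as well with no overlap. The call of the first was lost without old control replicates 2 or 3 or CR replicates 4 or 5 (adjusted p 0.0535 to 0.0816). That of the other was lost without old control replicates 2, 3 or 5 or CR replicates 2 or 3 (adjusted p 0.0569 to 0.0726). Probe set 1433446_at had a change of +0.37 (adjusted p = 0.216), and 515.7 to 625.6 in CR hearts, against 308.3 to 526.9 in old control hearts. With the mean of all Hmgcs1 probe sets in place of the representing one, the change was 0.21 (adjusted p = 0.49). That mean also holds probe set 1441536_at, whose signal lay below the cutoff in heart.

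The CR hearts also carried more signal of genes of other cell types. The summed signal of 10 hepatocyte markers, of which 7 passed the cutoff in heart, was 4390 to 7441 in CR hearts and 1489 to 7368 in resveratrol hearts, against 872.6 to 1362 in old control hearts. The secreted protein albumin (Alb) rose by 4.06 on the log2 scale with CR (adjusted p = 2.57e-05). The summed signal of 9 macrophage markers was 19640 to 23630 with CR and 17240 to 26070 with resveratrol, against 12300 to 17020 in old control hearts. The summed signal of 6 adipocyte markers was 45430 to 55980 with CR and 40980 to 59600 with resveratrol, against 28830 to 39920 in old control hearts. Fabp4 carried most of these sums, with means of 44200 with CR and 41350 with resveratrol, against 32030 in old control hearts. Of 5 adipocyte markers measured in heart 2 rose with CR and 1 with resveratrol, against 22% and 17.5% of all genes called. None of these lists overlapped the old controls in either diet. The part of these cells in the changes of heart was not tested.

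Hmgcs1 was not called elsewhere. It averaged 3005 ± 694 in CR muscles and 3163 ± 381 in resveratrol muscles, against 2729 ± 1039 in old control muscles, in which replicate 1 had 4444. In neocortex it averaged 9387 ± 647 with CR and 9208 ± 994 with resveratrol, against 8255 ± 544 in old controls (adjusted p = 0.0685 and 0.143). With age it averaged 3093 ± 188 in old hearts and 2654 ± 432 in young hearts (SD, n = 5 each; log2 change 0.23, adjusted p = 0.185).

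Idi1 was not called in gastrocnemius in any comparison. Its signals were 1194, 850.6, 988.4, 656.1 and 521.9 in old control muscles, against 399, 450.9, 371.5, 644.2 and 521.2 in young control muscles. CR muscles had 478.1, 968.5, 441.8, 512.7 and 488.5, and resveratrol muscles 455.4, 490.8, 566.5, 545.6 and 581.4. The old control arrays were higher than most others and the groups overlapped. The log2 changes were 0.79 with age (adjusted p = 0.121), −0.55 with CR (adjusted p = 0.0637) and −0.62 with resveratrol (adjusted p = 0.0545). Without CR replicate 2, at 968.5, the CR change was −0.75 and passed (adjusted p = 0.00683), and without young control replicate 4 the age change was 0.90 and passed (adjusted p = 0.032). Old control replicate 5, young control replicate 4 and CR replicate 2 also each brought the resveratrol change past the threshold when left out (adjusted p 0.0198, 0.0424 and 0.0176). Without old control replicate 5 the CR change was −0.71 (adjusted p = 0.0219), and without CR replicate 2 the age change had an adjusted p of 0.0417. The other Idi1 probe set, 1423804_a_at, changed in gastrocnemius by 0.35 with age, 0.26 with CR and 0.05 with resveratrol (adjusted p = 0.582, 0.495 and 0.924).

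In neocortex the other Idi1 probe set, 1423804_a_at, differed between the diets. Its signals were 572.8, 699.7, 619.7, 576.7 and 785.1 with CR and 967.3, 986, 982.7, 892.9 and 895.8 with resveratrol, against 618.4, 717.5, 705.6, 685.3 and 577.5 in old controls. All resveratrol arrays lay above both other old groups. It rose by 0.52 with resveratrol (SE 0.0988, adjusted p = 0.000471) and the difference of CR minus resveratrol was −0.55 (SE 0.0988, adjusted p = 0.00271), where 8.06% of probe sets were called. The representing probe set changed by 0.17 with CR and 0.21 with resveratrol (adjusted p = 0.188 and 0.0935), and its CR minus resveratrol difference was −0.05 (95% interval −0.24 to 0.14). In heart Idi1 averaged 243 ± 47.1 in old controls and 408 ± 153 in young controls (log2 change −0.70, adjusted p = 0.0788).

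Fdft1, squalene synthase, was called in every tissue. In heart it rose with age. Its signals were 2357, 2689, 2613, 2682 and 2579 in old control hearts, against 1360, 1522, 1705, 1770 and 1724 in young control hearts. Every old array lay above every young array, and the log2 change was 0.68 (SE 0.146, adjusted p = 0.00324), in each fit with 1 array left out as well. With the mean of all its probe sets the change was 0.07 (adjusted p = 0.922), and probe set 1448130_at, with 1592 ± 67.2 in old hearts and 1383 ± 217 in young hearts, changed by 0.22 (adjusted p = 0.407). The mean also holds probe sets 1438918_at and 1438919_x_at, which lay below the cutoff in every tissue.

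In neocortex Fdft1 rose with CR and with resveratrol. It had 3844, 4510, 4453, 4357 and 4375 in CR neocortices and 3721, 3757, 4809, 3959 and 3492 in resveratrol neocortices, against 3717, 3239, 3390, 3278 and 2933 in old control neocortices. The CR arrays lay above all old controls, while the resveratrol arrays overlapped them. The log2 changes were 0.38 (SE 0.0851, adjusted p = 0.00154) and 0.25 (SE 0.0851, adjusted p = 0.0325), and CR minus resveratrol was 0.13 (95% interval −0.04 to 0.31, adjusted p = 0.356). The resveratrol call was lost without old control replicates 2, 4 or 5 or resveratrol replicates 3 or 4 (adjusted p 0.0562 to 0.11). With the mean of all its probe sets the change was −0.27 with resveratrol (adjusted p = 0.402) and 0.27 with CR (adjusted p = 0.384). Probe sets 1438918_at and 1438919_x_at, below the cutoff, are part of that mean. Probe set 1448130_at had 3324, 3489, 2951, 3592 and 2583 with CR and 2341, 2189, 2452, 2396 and 1889 with resveratrol, against 2514, 2255, 2798, 2250 and 2122 in old controls. It rose by 0.41 with CR (adjusted p = 0.00233), and CR minus resveratrol was 0.50 (adjusted p = 0.00357) with no overlap between the diets.

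In gastrocnemius the 2 Fdft1 probe sets moved in opposite directions under CR. The representing one, 1438322_x_at, had 5823, 6709, 5469, 5132 and 4937 in CR muscles, against 4710, 3943, 4333, 4781 and 3810 in old control muscles. Probe set 1448130_at had 1817, 2026, 1881, 1518 and 1827 in CR muscles, against 2103, 3413, 3107, 3449 and 3181 in old control muscles. Neither pair of groups overlapped. The first rose by 0.38 (SE 0.137, adjusted p = 0.0409), and the other fell by 0.73 with CR (adjusted p = 0.00204) where 32.8% of probe sets were called. With resveratrol 1448130_at had 1442 to 1840, below all old controls, and fell by 0.89 (adjusted p = 0.000686). The rise of the representing probe set was lost without old control replicates 2, 3 or 5 or CR replicates 1, 2 or 3 (adjusted p 0.0628 to 0.0953), while both decreases of 1448130_at held. The CR and resveratrol muscles are those whose poly-A controls stood above all control muscles. Their macrophage marker sums were 7080 to 13660 and 7689 to 16250, against 5683 to 7494, and their part was not tested. In heart 1448130_at also fell with resveratrol (−0.53, adjusted p = 0.0178), where 15.2% of probe sets were called.

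**Figure D4:**
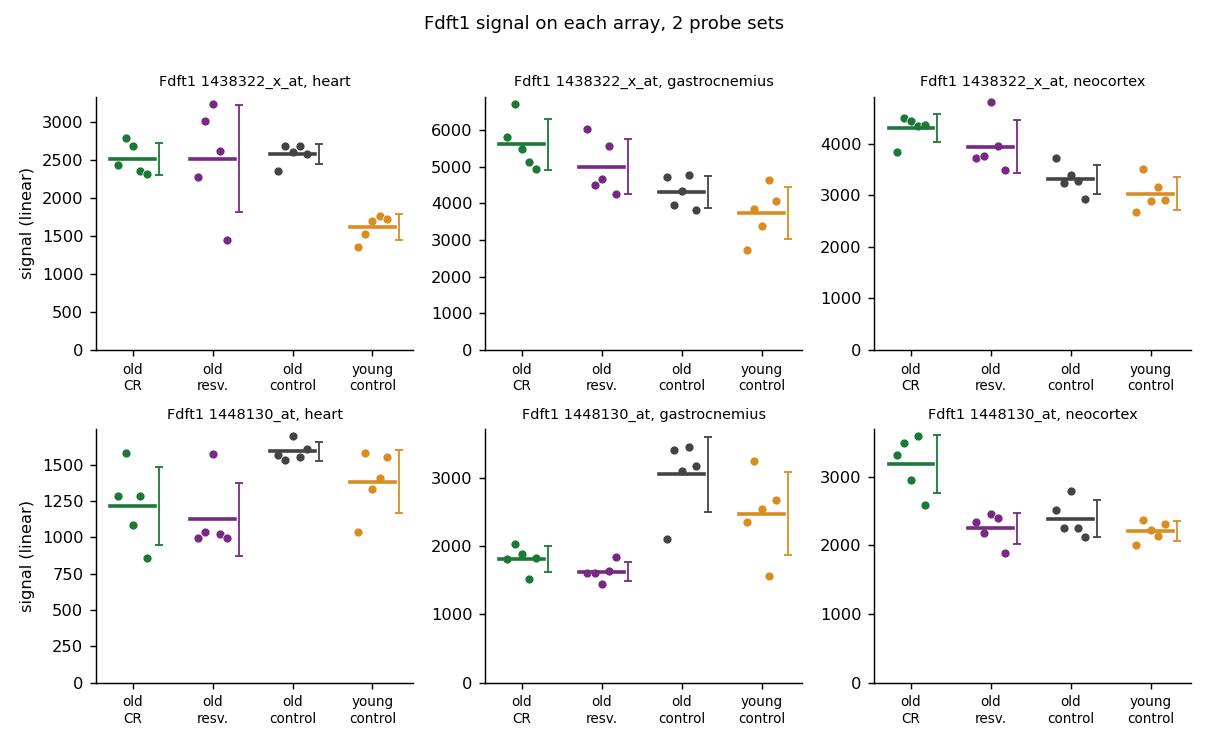
Signal of Fdft1 probe sets 1438322_x_at and 1448130_at for old CR, old resveratrol, old control and young control in each tissue. Points are arrays, bars are means and error bars the SD (n = 5). In gastrocnemius the CR arrays of 1438322_x_at lie above the old controls and those of 1448130_at below them.

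Sqle, squalene epoxidase, rose with age in gastrocnemius. Its signals were 373.6, 256.6, 246, 178.9 and 160.8 in old control muscles, against 77.4, 113.4, 79.3, 146.4 and 97 in young control muscles. The groups did not overlap, and the log2 change was 1.22 (SE 0.257, adjusted p = 0.0294). In CR muscles it had 207.6, 216.4, 189.9, 229.4 and 184.5 and in resveratrol muscles 196.2, 112.6, 170.8, 116 and 229.7, with changes against the old controls of −0.18 (adjusted p = 0.616) and −0.55 (adjusted p = 0.14). The age call was lost without young control replicates 1, 2, 3 or 5 or old control replicates 1, 2 or 3 (log2 change 1.05 to 1.27, adjusted p 0.0615 to 0.102). Old control replicate 1, the highest for Sqle, was also the highest old control for Hmgcs1 and Idi1. Its muscle group had the widest 3′ minus 5′ Gapdh difference, 0.781 ± 1.4 with a highest array of 3.23, whereas CR and resveratrol muscles averaged −0.27 ± 0.0262 and −0.275 ± 0.0275. The summed signal of 6 adipocyte markers was 27630 to 42620 in old control muscles, against 17570 to 27550 in young control muscles. These sums did not overlap, although 0 of the 6 markers were called with age. The part of adipocytes in the Sqle change was not tested. In heart Sqle was low, with 10.1 to 159 in CR hearts and 67.4 to 209.6 in resveratrol hearts, against 58.2 to 157 in old control hearts, and nothing was called there. In neocortex it averaged 1631 ± 134 in old controls and 1382 ± 102 in young controls (log2 change 0.24, adjusted p = 0.243).

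Cyp51, lanosterol 14-demethylase, fell in gastrocnemius with resveratrol. Its signals were 232, 144.8, 216.3, 195.9 and 205.1 in resveratrol muscles and 187.9, 378.4, 237.2, 149.3 and 211.3 in CR muscles, against 359.8, 337.9, 344.9, 253.5 and 271.3 in old control muscles. Every resveratrol array lay below every old control array. The log2 change was −0.66 with resveratrol (SE 0.215, adjusted p = 0.0353) and −0.49 with CR (adjusted p = 0.0887). The resveratrol call was lost without old control replicates 1, 2 or 3 or resveratrol replicates 2, 4 or 5 (adjusted p 0.0542 to 0.0974), and the mean of all Cyp51 probe sets gave −0.24 (adjusted p = 0.668). Probe set 1422533_at changed by −0.09 there (adjusted p = 0.814), and the mean also holds 1422534_at, which lay below the cutoff in gastrocnemius. Without CR replicate 2, the highest at 378.4, the CR change of the representing probe set was −0.68 and passed (adjusted p = 0.0129). In heart the signals averaged 281.5 ± 39.3 with CR and 331.5 ± 55.2 with resveratrol, against 225.7 ± 71.6 in old controls (adjusted p = 0.317 and 0.106). In neocortex probe set 1422533_at averaged 269.8 ± 60.2 with CR and 371.9 ± 44.8 with resveratrol, and the difference of CR minus resveratrol was −0.48 (adjusted p = 0.0277). It was lost without CR replicates 1, 3 or 4 or resveratrol replicates 2, 3 or 5 (adjusted p 0.0508 to 0.0709).

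**Figure D5:**
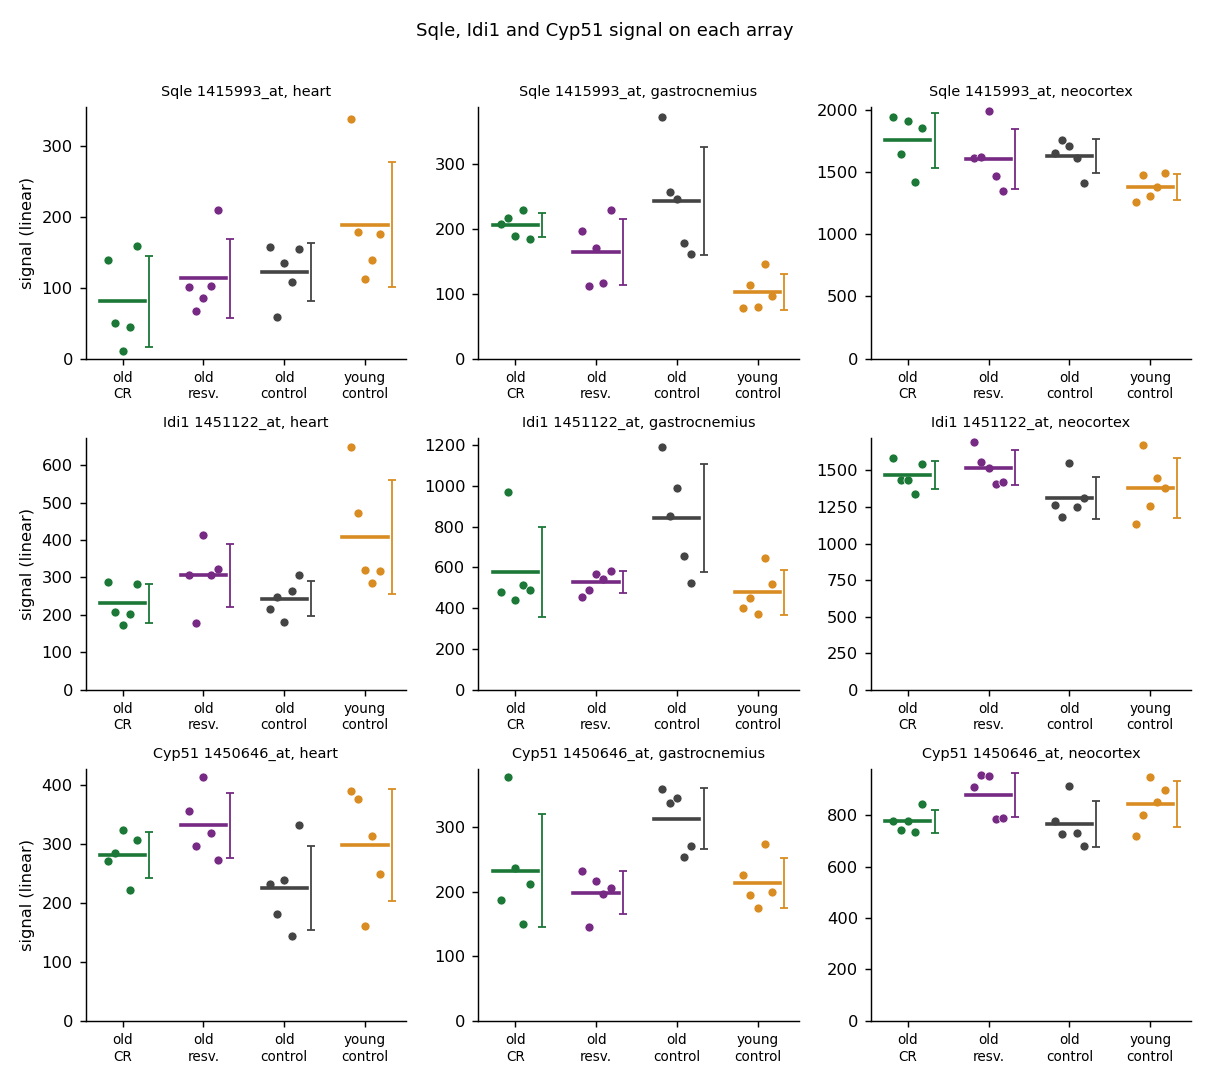
Signal of Sqle, Idi1 and Cyp51 for old CR, old resveratrol, old control and young control in each tissue. Points are arrays, bars are means and error bars the SD (n = 5). In gastrocnemius old controls average 243.2 for Sqle, 842.2 for Idi1 and 313.5 for Cyp51, above young controls at 102.7, 477.4 and 213.6.

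Dhcr7, which reduces 7-dehydrocholesterol to cholesterol, fell in heart with CR and in neocortex with both diets. In heart it had 165, 61, 239.2, 114.3 and 201.4 with CR, against 230.8, 282.9, 374.1, 249.7 and 388.1 in old controls. The highest CR array reached into the control range, and the log2 change was −1.08 (SE 0.331, adjusted p = 0.0197). It was lost without old control replicate 3 (−1.0, adjusted p = 0.0501), old control replicate 5 (−0.99, adjusted p = 0.0531) or CR replicate 2 (−0.78, adjusted p = 0.0716). In neocortex it had 373.8, 397.3, 400.9, 428.5 and 415.3 with CR and 428.1, 369.2, 383.1, 418.8 and 396.2 with resveratrol, against 421.4, 552.9, 466.7, 537.3 and 618.9 in old controls. The lowest old control array lay inside the diet range. The log2 changes were −0.35 (SE 0.112, adjusted p = 0.0191) and −0.37 (SE 0.112, adjusted p = 0.017), and CR minus resveratrol was 0.02 (95% interval −0.22 to 0.25). Both were lost without old control replicate 5 (adjusted p = 0.0643 with CR and 0.0583 with resveratrol). In gastrocnemius no change was called, with 81.7 to 479.2 in resveratrol muscles and 103.7 to 419.8 in CR muscles, against 243.1 to 458.6 in old controls.

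No member passed the test of CR minus resveratrol in any tissue (limma; 1 of 8 at an unadjusted p under 0.05 in heart, 0 in gastrocnemius and 0 in neocortex). Over all genes 4% were called in heart, 0.561% in gastrocnemius and 9.28% in neocortex. This does not show that the diets act alike. In neocortex the 95% intervals of the difference for the representing probe sets were all within 0.56 log2 units of 0, and for Srebf2 the interval was −0.37 to 0.16. Of 16 member probe sets tested on their own there, 1 was higher and 2 were lower with CR than with resveratrol, against 8.06% called. These were Fdft1 1448130_at, Idi1 1423804_a_at and Cyp51 1422533_at, described above, and none of them represents its gene. In heart the interval for Sqle ran from −2.12 to 0.26 and for Dhcr7 from −1.32 to 0.04. Hmgcs1 in heart had the unadjusted call, with 2214 ± 262 in CR hearts and 2633 ± 282 in resveratrol hearts (log2 difference −0.25, adjusted p = 0.228).

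Whether a change differed between tissues was tested directly in 1 fit of all 60 arrays over 11111 genes, in which 10 of 72 member contrasts passed. Each gene entered this fit by its representing probe set alone. The total count is of the order of the shares of all genes called, given below, so it is not a result about these genes. With age the change in gastrocnemius minus that in heart was 1.82 for Sqle (adjusted p = 0.021), 1.49 for Idi1 (adjusted p = 0.000648) and 0.94 for Cyp51 (adjusted p = 0.0241), where 7.69% of genes were called. None passed with age for neocortex minus heart, against 4.91% of genes, or for neocortex minus gastrocnemius, against 0.459%. The representing probe sets of these 3 enzymes had higher signals in old than young control muscles and lower signals in old than young control hearts. Of the other probe sets tested, Idi1 1423804_a_at went the same way in both tissues. Cyp51 1422533_at went the same way in muscle, but changed by 0.24 in heart (adjusted p = 0.638). With CR the change of Hmgcs1 was 0.67 higher in neocortex than in heart (adjusted p = 0.019, 11.3% of genes called) and 0.67 higher in gastrocnemius than in heart (adjusted p = 0.00817). Hmgcs1 probe sets 1433444_at, 1433445_x_at and 1433446_at changed with CR by −0.47, −0.35 and 0.37 in heart. They changed by −0.31, −0.11 and −0.27 in gastrocnemius and by 0.09, 0.12 and 0.17 in neocortex. For 1433446_at the change was thus lower in both tissues than in heart. Cyp51 with CR was −0.85 for gastrocnemius minus heart (adjusted p = 0.0148), where 27.5% of genes were called, and no member passed for neocortex minus gastrocnemius, against 23%. Cyp51 probe set 1422533_at changed by 0.04 in gastrocnemius and −0.11 in heart with CR (adjusted p = 0.893 and 0.812).

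With resveratrol the changes of Cyp51 and Idi1 in gastrocnemius differed from those in each of the other tissues. The change in gastrocnemius minus that in heart was −1.26 for Cyp51 (adjusted p = 0.000445) and −0.92 for Idi1 (adjusted p = 0.0139), against 23% of genes called. The change in neocortex minus that in gastrocnemius was 0.86 for Cyp51 (adjusted p = 0.0234) and 0.83 for Idi1 (adjusted p = 0.038), against 15%. None passed for neocortex minus heart, against 7.41%. The representing probe sets of both genes had negative changes in gastrocnemius and positive changes in heart and neocortex with resveratrol. Probe sets 1423804_a_at of Idi1 and 1422533_at of Cyp51 were also positive in heart and neocortex. In gastrocnemius they changed by 0.05 and −0.09 (adjusted p = 0.924 and 0.814). The tissues were treated as coming from different mice, because no label ties them.

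The members varied together within groups only loosely. Over the 20 arrays of a tissue, with group means removed, the median Pearson r of the 28 member pairs was 0.18 in heart, 0.32 in gastrocnemius and 0.29 in neocortex, with 21, 23 and 23 pairs positive. The arrays share scaling and RNA quality, so these are descriptions. The highest pairs were Sqle with Idi1 in heart (r = 0.562), Hmgcs1 with Idi1 in gastrocnemius (r = 0.889) and Insig1 with Srebf2 in neocortex (r = 0.647). Idi1 followed the mean of the other members most closely in gastrocnemius (r = 0.858), while Fdft1 ran against them in heart (r = −0.497) and Srebf2 in gastrocnemius had r = −0.118. Among non-members the highest r with the mean of the members was 0.815 for Bscl2, the seipin gene of lipid droplets, in heart, followed by Cdk9, Cd300lf and Fabp5. In gastrocnemius it was 0.873 for Trnt1, followed by Ncoa4, Sowahc and Degs1, and in neocortex 0.867 for Atxn7l3, followed by Zfp365, Tppp and Extl1.

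Other genes of the pathway were counted from lists of sterol enzymes, SREBP regulators, uptake and transport, and LXR, efflux and conversion genes. Of 13 other sterol enzymes measured, 2 fell with age in heart and 4 rose with CR and 2 with resveratrol, against 10.8%, 22% and 17.5% of all genes called there. Fdps, which makes farnesyl diphosphate, changed by −1.04 with age, 0.76 with CR and 0.71 with resveratrol, and Sc5d, a sterol desaturase, by −0.67, 0.64 and 0.72 (adjusted p 0.000413 to 0.0312). None of these 6 calls held with the probe sets of the gene averaged. The Fdps call with CR was lost without old control heart replicates 1 or 4, and that with resveratrol without either of these or resveratrol heart replicates 3, 4 or 5 (adjusted p 0.0552 to 0.102). In gastrocnemius 1 rose with age, 3 rose and 1 fell with CR, and 2 rose and 2 fell with resveratrol, against 0.429%, 31.2% and 18.7% of all genes. Msmo1, the sterol methyl oxidase, changed by 1.15 with age (adjusted p = 0.0227), −1.16 with CR and −1.32 with resveratrol, in each case with no overlap. The age call was lost without young control replicates 2 or 3 or old control replicates 1, 2 or 3 (log2 change 0.93 to 1.15, adjusted p 0.0531 to 0.0715). In neocortex none was called with age, 2 rose and 1 fell with CR, and 1 rose and 1 fell with resveratrol, against 1.46%, 30.6% and 26.2%. Fdps rose there by 0.52 with CR (adjusted p = 5e-04) and differed by 0.61 between CR and resveratrol (adjusted p = 0.00135), and neither passed with the mean of its probe sets (adjusted p = 0.679 and 0.46).

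Of 9 other SREBP regulators, 1 rose and 1 fell with age in heart, 4 fell with CR and 3 fell with resveratrol, against 10.8%, 22% and 17.5% of all genes called there. In gastrocnemius none was called with age, 3 fell with CR and 2 fell with resveratrol, against 0.429%, 31.2% and 18.7%. In neocortex 1 rose with age, and 1 rose and 3 fell with each diet, against 1.46%, 30.6% and 26.2%. With the probe sets of each gene averaged, the decreases of Erlin1 and Rnf139 with CR and of Rnf139 and Scap with resveratrol in heart, those of Mbtps1 with both diets and of Rnf139 with CR in gastrocnemius and that of Rnf139 with resveratrol in neocortex turned positive. Srebf1, which encodes SREBP-1, fell in gastrocnemius by 1.44 with CR (adjusted p = 3.24e-06) and by 1.13 with resveratrol (adjusted p = 9.07e-05). In neocortex Srebf1 rose by 0.73 with age and changed by −0.81 with CR and −0.61 with resveratrol. Scap, the SREBP escort, changed by −0.49 in neocortex with each diet (adjusted p = 0.00399 and 0.00468), and with the mean of its probe sets neither change passed (adjusted p = 0.338 with CR and 0.993 with resveratrol).

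Of the uptake and transport genes (8 measured in heart and gastrocnemius and 9 in neocortex), 1 rose with CR and 2 rose and 1 fell with resveratrol in heart, against 22% and 17.5% of all genes called. In gastrocnemius 1 rose and 2 fell with CR and 1 fell with resveratrol, against 31.2% and 18.7%. In neocortex 1 rose with age, 1 rose and 4 fell with CR and 1 rose and 3 fell with resveratrol, against 1.46%, 30.6% and 26.2%. Lrp1, a lipoprotein receptor, changed there by −0.74 and −0.45, and Scarb1, an HDL receptor, by −0.55 and −0.44 with CR and with resveratrol (adjusted p 1.89e-06 to 0.000701). With probe sets averaged none of these 4 passed, and the changes were 0.088 and 0.30 for Lrp1 and −0.12 and 0.090 for Scarb1. Mylip, a ubiquitin ligase that lowers lipoprotein receptors, rose in heart by 0.70 with CR (adjusted p = 3.85e-05) and by 0.47 with resveratrol (adjusted p = 0.00317), and Vldlr in heart differed by 0.74 between CR and resveratrol (adjusted p = 0.00301).

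Of the LXR, efflux and conversion genes (9 measured in heart and neocortex and 8 in gastrocnemius), 1 rose with age and 1 fell with resveratrol in heart, against 10.8% and 17.5% of all genes called, and 2 rose with CR in gastrocnemius, against 31.2%. In neocortex 1 rose with age, 3 fell with CR, and 1 rose and 2 fell with resveratrol, against 1.46%, 30.6% and 26.2%. Cyp46a1, the neuronal enzyme that turns cholesterol into 24-hydroxycholesterol for export, fell by 0.74 with CR (adjusted p = 3.87e-08) and by 0.75 with resveratrol (adjusted p = 4.29e-08). Abca1, a cholesterol efflux pump, rose by 0.70 with age (adjusted p = 0.00109).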

How the data were processed

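RNA of heart, gastrocnemius and neocortex was hybridised to Affymetrix Mouse Genome 430 2.0 arrays, 1 array per tissue sample and 5 arrays per group. The deposited values are linear probe set intensity signals that the authors computed with GCOS 1.2 and scaled to a trimmed mean of 500, so they hold no counts and the number of arrays limits the precision. Here each array was brought to the 2% trimmed mean shared by its tissue, floored at 1 and taken to log2. Probe sets with 1 symbol in the platform annotation (34945, of 45101) were used, while 932 had several symbols and 9160 had none. A gene was represented by its probe set of highest mean signal and tested where that mean reached the 40th percentile of the tissue (60.4, 69.3 and 57.3 signal units in heart, gastrocnemius and neocortex), which left 13285, 12831 and 13057 genes. All 8 members passed, and 15, 15 and 16 of their 19 probe sets. The 4 groups of a tissue entered 1 limma 3.58.1 fit (lmFit, eBayes with trend, R 4.3.3), two-sided, with Benjamini-Hochberg adjustment over all genes of a comparison at 0.05. The 8 genes, the other lists and the alternatives were chosen with earlier results of these data known. Named genes outside the members were, by rule, up to 3 called genes with the largest change in each list and comparison, and the 4 genes with the highest r to the members in each tissue. Exact permutation tests of array control values (48, adjusted together) cannot go below 0.00794. Deviations of same-numbered arrays of different groups had a median r of 0.00673 in heart, 0.0126 in gastrocnemius and 0.0305 in neocortex, and the fits had no replicate block. On data simulated with known CR changes, 19%, 10% and 53% of changes of 0.5 log2 units and 54%, 53% and 87% of changes of 1 log2 unit were recovered in heart (13285 genes), gastrocnemius (12831 genes) and neocortex (13057 genes). Only a small part of the genes in brackets was changed there, whereas 22%, 31.2% and 30.6% were called with CR in the data. The adjustment depends on that part, so these rates do not describe recovery in the real fits. No label says whether 1 mouse gave several tissues.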

Additional observations from a re-analysis of the deposited data

Results flagged for a closer look

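In 3 of 96 groups of 5 arrays, 1 array of a member stood far from the others. Its gap to the nearest divided by the range of the group, both on the log2 scale, exceeded 0.71, which chance does in about 1 of 20 groups. The signals below are linear. Hmgcs1 in neocortex of old resveratrol replicate 3 had 10930, against 8504 to 9113 in the others (ratio 0.724). Idi1 in gastrocnemius of old CR replicate 2 had 968.5, against 441.8 to 512.7 (ratio 0.81). Fdft1 in neocortex of old CR replicate 1 was the lowest at 3844, against 4357 to 4510 (ratio 0.784).

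The change of a member differed between tissues in 10 of 72 contrasts by limma's interaction test over all 60 arrays, on the representing probe set of each gene. Over all genes 0.459% to 27.5% were called in these comparisons. The total count is of the order of those shares, so it is not a result about these genes. With age, gastrocnemius minus heart was 1.82 for Sqle, 1.49 for Idi1 and 0.945 for Cyp51. The Sqle difference was lost without young control heart replicate 1 (1.58, adjusted p = 0.0539) or old control heart replicate 2 (1.57, adjusted p = 0.0529). That of Cyp51 was lost without young control heart replicates 1 (0.83, adjusted p = 0.0571) or 2 (0.84, adjusted p = 0.056) or old control heart replicate 4 (0.80, adjusted p = 0.0675). With CR, Hmgcs1 differed by 0.6732 in neocortex minus heart and by 0.6732 in gastrocnemius minus heart, and Cyp51 by −0.85 in gastrocnemius minus heart. With resveratrol, gastrocnemius minus heart was −0.92 for Idi1 and −1.26 for Cyp51, and neocortex minus gastrocnemius was 0.83 for Idi1 and 0.863 for Cyp51. The last Cyp51 value was lost without resveratrol muscle replicate 2 (0.75, adjusted p = 0.056). That of Idi1 was lost without old control muscle replicates 1, 2 or 3, resveratrol muscle replicates 1 or 2, old control neocortex replicates 1, 2, 4 or 5 or resveratrol neocortex replicates 1, 2 or 3 (0.69 to 0.84, adjusted p 0.0501 to 0.0961).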

How the results depend on the processing

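Of the 14 member changes called, all kept their call with the signals as deposited, with 16 added before log2 and with every probe set on its own, as did the 13 that a filter at the 60th percentile could test. Of 14, the number that lost it was 5 with the t-test of the methods on log2 values, 4 on unlogged signal, 3 without a filter, 3 with only the 2 groups compared, 2 with quantile normalization and 2 with eBayes without trend. At the methods' threshold, an unadjusted p of 0.01, that t-test called 12 of 72 member changes on log2 values and 11 on unlogged signal, and after Benjamini-Hochberg adjustment at 0.05 it called 9 and 11. Same-numbered arrays correlated above 0.1 in 0, 2 and 3 of 30 pairs in heart, gastrocnemius and neocortex. Differently numbered pairs were not compared, so whether the numbers mark anything shared was not tested. The replicate block lost 4 calls, which left 0 members called in gastrocnemius with age, 0 with CR and 0 with resveratrol. With all probe sets of a gene averaged 5 calls were lost and 2 turned: 0 members were called in heart with age, 0 in gastrocnemius with CR and 0 with resveratrol, and 1 in neocortex for CR minus resveratrol.

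In gastrocnemius with age 0 members were called with the 60th percentile filter, without a filter, with either t-test and with only the 2 groups, and with CR 1 was called with either t-test, without a filter, with only the 2 groups and without the trend. With resveratrol in gastrocnemius 2 were called with the 60th percentile filter or only the 2 groups and 0 without a filter. In heart 1 was called with CR by the methods' t-test on log2 values, and with resveratrol 1 was called with the 60th percentile filter, only the 2 groups or without young control replicate 1 and old control replicate 4. In neocortex with age 0 were called by either t-test. The cause of these changes was not tested.

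With 1 array left out in turn, the members called ranged from 0 to 2 with age, 0 to 3 with CR and 0 to 2 with resveratrol in gastrocnemius, from 1 to 3 with CR and 0 to 1 with resveratrol in heart, and from 0 to 1 with age and 1 to 5 with resveratrol in neocortex. Between tissues they ranged from 1 to 3 (gastrocnemius minus heart), 0 to 1 (neocortex minus gastrocnemius) and 0 to 2 (neocortex minus heart) with age, 0 to 2 (neocortex minus gastrocnemius) and 1 to 2 (neocortex minus heart) with CR and 0 to 2 (neocortex minus gastrocnemius) with resveratrol. For neocortex minus gastrocnemius, quantile normalization over 60 arrays gave 1 with CR and 1 with resveratrol, and no filter gave 1 with resveratrol.

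The mean of all probe sets turned the sign of called changes: with CR in heart Hmgcs1 (0.21), Erlin1 (0.17) and Rnf139 (0.13), in gastrocnemius Mbtps1 (0.55) and Rnf139 (0.21), and in neocortex Lrp1 (0.088). With resveratrol it turned Rnf139 (0.14) and Scap (0.31) in heart, Mbtps1 (0.42) in gastrocnemius and Fdft1 (−0.27), Rnf139 (0.046), Lrp1 (0.30) and Scarb1 (0.090) in neocortex. A mean of all probe sets also takes in those below the signal cutoff, such as 1441536_at of Hmgcs1 in heart. Low signals limit Sqle in heart, with single arrays down to 10.1.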
